A study of Mus musculus with 6 samples.

Results

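MHC class I peptide presentation was followed through 10 genes of the 55357 in the deposited table: H2-K1, H2-D1, B2m, Tap1, Tap2, Tapbp, Psmb8, Psmb9, Psmb10 and Nlrc5. They were taken by gene symbol, each symbol occurred in 1 row, and all 10 averaged at least 1 TPM (a unit of transcript abundance: a length-corrected level with an equal sum in each library). The levels come from bulk RNA sequencing of 6 tumours grown under the skin of C57BL/6J mice from 250000 injected cells of KPC1242, a line from a mouse pancreatic ductal adenocarcinoma. In the FA group, 3 tumours came from mice given 2 mg folinic acid, a reduced folate, by oral gavage each day from day 8 to day 12. In the PBS group, 3 tumours came from mice given phosphate-buffered saline on the same days. All 6 tumours were taken on day 14, and each gave 1 library. The model is 1 transplanted cell line in a host that keeps its own immune cells, and the labels give neither sex nor age. They do not state that every tumour came from a different mouse, so p-values measure the spread between these 6 tumours. All FA tumours share 1 prefix in their sample descriptions and all PBS tumours another, and what that prefix marks cannot be told apart from treatment.

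MHC class I molecules display short peptides from proteins made inside a cell, and cytotoxic T cells read them. The peptides are cut by the proteasome, carried into the endoplasmic reticulum by a transporter, and loaded onto a heavy chain that is held by beta-2 microglobulin. Interferon gamma raises the whole pathway in many cell types, with a transactivator and exchanged proteasome subunits as parts of that response, and reduced class I display is a known feature of many pancreatic tumours.

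Promoter sequence is shown for 5 of the genes, because the class I heavy chains and beta-2 microglobulin are known to share control elements and because Tap1 and Psmb9 lie back to back. RefSeq's GRCm38.p6 promoter table held 8 of the 10 genes. It had no entry for Tap2 or Nlrc5. Sequences are the 250 bases before the annotated start, read on the gene's strand, and the last is the 225 bases between the starts of Psmb9 and Tap1, read on the Tap1 strand. Capitals mark matches to any of 6 motifs searched on both strands: GGGGA joined directly to TTCCC (kappaB type), TGACGC (a CRE-like core), CCAAT (the binding box of NF-Y), GAAA repeated after 2 free bases and the shorter GAA, 2 free bases and GAAA (both of the interferon regulatory factor type), and TTC, 3 free bases and GAA (the STAT type called GAS). The motifs were picked after the windows had been viewed, and no match overlapped one to another motif.
H2-K1, chr17:34000348-34000597, minus strand: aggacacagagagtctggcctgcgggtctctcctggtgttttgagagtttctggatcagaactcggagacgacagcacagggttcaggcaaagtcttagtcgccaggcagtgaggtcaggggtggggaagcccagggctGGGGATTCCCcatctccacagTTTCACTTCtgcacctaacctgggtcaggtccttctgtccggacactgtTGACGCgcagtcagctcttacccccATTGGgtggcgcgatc
H2-D1, chr17:35262844-35263093, plus strand: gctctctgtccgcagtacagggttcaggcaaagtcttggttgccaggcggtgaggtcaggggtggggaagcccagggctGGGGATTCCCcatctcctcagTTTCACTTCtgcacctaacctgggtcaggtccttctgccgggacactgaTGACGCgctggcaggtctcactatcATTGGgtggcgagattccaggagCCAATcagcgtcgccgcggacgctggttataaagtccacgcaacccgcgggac
B2m, chr2:122147437-122147686, plus strand: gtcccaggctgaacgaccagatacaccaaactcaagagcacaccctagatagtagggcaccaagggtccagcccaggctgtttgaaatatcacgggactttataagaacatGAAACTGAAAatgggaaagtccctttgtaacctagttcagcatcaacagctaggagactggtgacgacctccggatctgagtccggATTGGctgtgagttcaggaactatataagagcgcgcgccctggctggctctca
Tap1 and Psmb9, chr17:34187331-34187555, plus strand: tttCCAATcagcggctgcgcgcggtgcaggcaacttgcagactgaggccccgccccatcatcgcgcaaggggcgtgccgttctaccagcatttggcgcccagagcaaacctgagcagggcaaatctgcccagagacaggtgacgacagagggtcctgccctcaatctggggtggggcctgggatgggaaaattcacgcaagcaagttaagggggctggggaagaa

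The H2-K1 and H2-D1 windows held the same 4 kinds of match in the same order, and over the 190 bases where they align without gaps 87.4% were identical. The kappaB-type motif was in 0.0852% of the 32851 windows of that length in the table, and among the 8 genes only in these 2. The CRE-like core was in 6.12% of windows and the shorter interferon factor motif in 6.31%, and both were again found in H2-K1 and H2-D1 alone. B2m had the longer interferon factor motif (2.98% of windows). CCAAT was common, at 33.85% of windows, and was present in 6 of the 8 genes, all but Psmb8 and Psmb10. The matches of Tap1 and Psmb9 are the same bases of their shared stretch, counted for both genes. The GAS motif (7.02% of windows) was found in Psmb8 alone. H2-K1 has a second annotated start in the table, and its first entry was used. By RefSeq's order of genes, Psmb9, Tap1, Psmb8 and Tap2 follow each other directly on chromosome 17, where H2-K1, H2-D1 and Tapbp lie as well; Psmb10 and Nlrc5 are on chromosome 8 and B2m on chromosome 2. A match is a description of the letters, not of binding. Only exact matches were counted, so a window without a match can still hold a variant of that motif.

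All 10 genes had their highest level in FA replicate 3, while FA replicates 1 and 2 lay within the range of the PBS tumours for 8 of the 10 (36% of the 15023 genes tested did so). The group means were all higher in FA, with a median log2 difference of 0.27. Without FA replicate 3 that median was 0.011 and 5 of the 10 were higher (55.5% of all genes then were). Without PBS replicate 3 the median was 0.096 and 9 of the 10 were higher (46.5% of all genes then were). No gene passed a test of FA against PBS. In a bulk tumour, fewer cells of a type and less RNA per cell cannot be told apart. FA replicate 3 stands apart from the other tumours over all genes: across genes it correlated with each of them at 0.949 to 0.968, and the other 5 with each other at 0.981 to 0.987. It held the highest value of 29.4% of all genes tested and the lowest value of 37.5%, and was at least 1.5 times the median of the other 5 tumours for 11.5%. For the 10 genes that last number was 7.

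**Figure D1:**
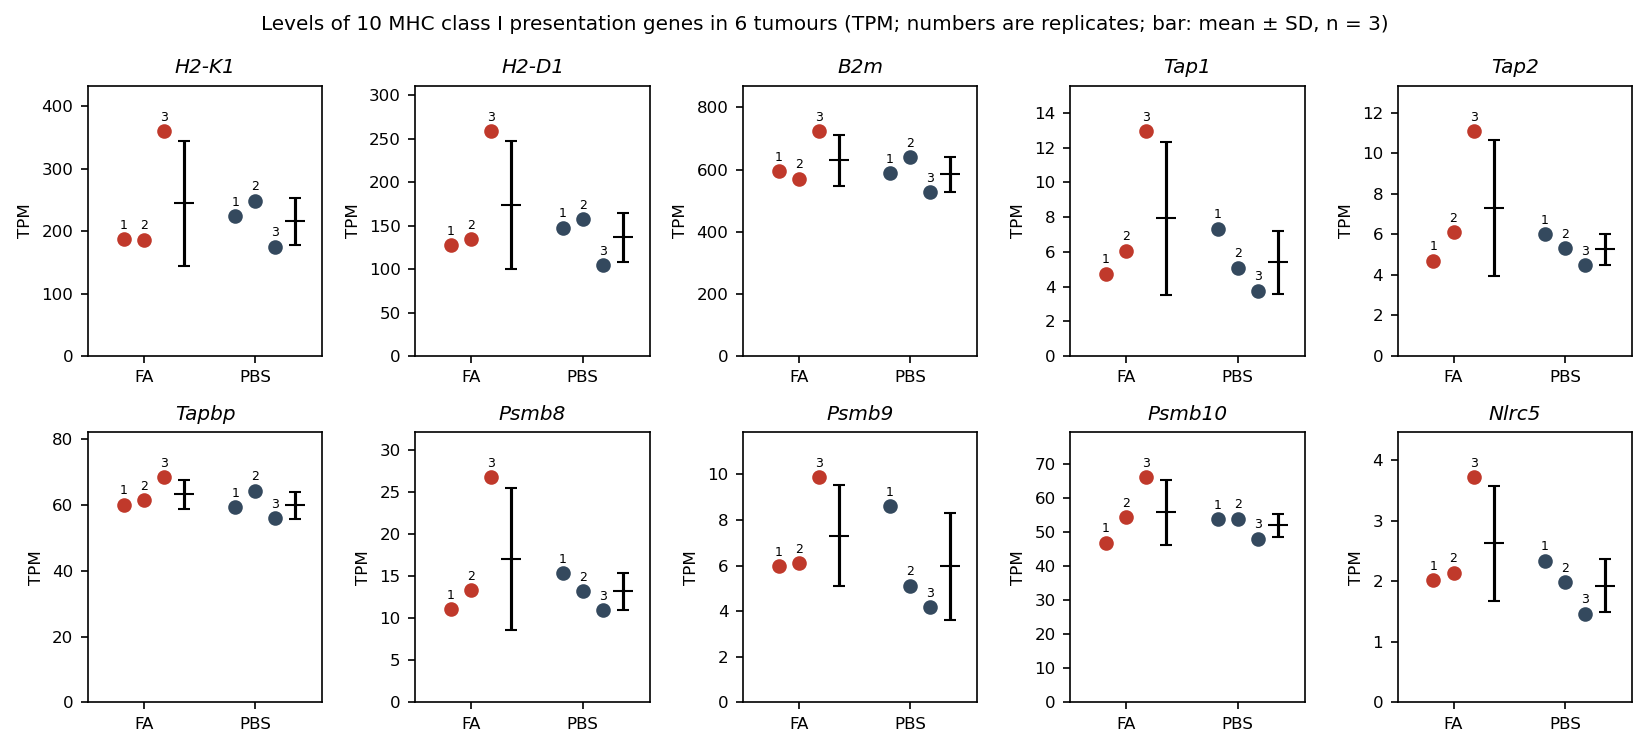
TPM of the 10 genes in each tumour, FA left of PBS, with replicate numbers over the points and the mean ± SD of each group (n = 3) beside them; every vertical axis starts at 0. FA replicate 3 is the highest point in all 10 panels, and PBS replicate 3 is the lowest of the 6 in all but Psmb10.

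The light chain and heavy chains were the most abundant of the 10. B2m (ENSMUSG00000060802), the invariant light chain, was at 594.41, 570.91 and 724.34 TPM in the FA group and at 588.01, 639.53 and 527.24 TPM in the PBS group. H2-K1 (ENSMUSG00000061232), the heavy chain of the K molecule, was at 187.27, 186.57 and 360.66 TPM in the FA group, against 223.94, 248.72 and 175.07 TPM in the PBS group. H2-D1 (ENSMUSG00000073411), the heavy chain of the D molecule, was at 127.56, 134.62 and 259.06 TPM in the FA group and at 147.43, 157.62 and 104.42 TPM in the PBS group. In each of the 3 genes the groups overlapped, PBS replicate 2 came second and PBS replicate 3 last. Both heavy chains had lower levels in FA replicates 1 and 2 than in PBS replicates 1 and 2.

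On the log2(TPM + 1) scale the difference of FA from PBS was 0.12 ± 0.27 for H2-K1, 0.29 ± 0.29 for H2-D1 and 0.10 ± 0.11 for B2m (standard errors, limma), with an adjusted p = 1 for each. The 95% interval for H2-K1 ran from -0.53 to 0.78, and that for B2m from -0.17 to 0.37. Without FA replicate 3 the differences were -0.19 for H2-K1, -0.036 for H2-D1 and -0.0014 for B2m, and without PBS replicate 3 that of H2-K1 was -0.020. Without FA replicate 2 that of H2-K1 was 0.28 and that of B2m 0.17, and without FA replicate 1 that of H2-D1 was 0.47.

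Heavy chain transcripts varied more than the light chain. Summed TPM of H2-K1 and H2-D1 came to 53.0%, 56.3% and 85.6% of B2m in the FA group and to 63.2%, 63.5% and 53.0% in the PBS group. FA replicate 3 stood at 1.93 times the median of the other 5 tumours for H2-K1 and at 1.92 times for H2-D1, but at 1.23 times for B2m. H2-K1 exceeded H2-D1 in all 6 tumours, by 1.39 to 1.68 times, although their ranges overlapped. Part of the reads of these paralogues could also be assigned to another gene. Of the 50-base stretches of the longest coding transcript, 8.79% for H2-K1 and 14.3% for H2-D1 also occur in another gene's transcript in GENCODE M21. That share was 0% for B2m. H2-K1 and H2-D1 have 109 of these stretches in common, 6.94% of those of H2-K1. The largest share of H2-D1 was with H2-Q1, at 7.40%, a gene at 0 TPM in all 6 tumours.

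Peptide transport and loading showed a wide and a narrow pattern. Tap1 (ENSMUSG00000037321) and Tap2 (ENSMUSG00000024339) encode the paired chains of the transporter that moves peptides into the endoplasmic reticulum. Tap1 was at 4.75, 6.06 and 12.97 TPM in the FA group and at 7.33, 5.09 and 3.77 TPM in the PBS group. Tap2 was at 4.69, 6.11 and 11.09 TPM in the FA group, against 5.99, 5.31 and 4.48 TPM in the PBS group. The groups overlapped in both genes. Tap1 had the widest spread of the 10, with 3.44 times between its highest and lowest tumour.

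Tapbp (ENSMUSG00000024308), which encodes tapasin, the bridge between transporter and empty class I molecules, had the narrowest spread, at 1.22 times. Its level was 60.05, 61.34 and 68.28 TPM in the FA group and 59.20, 64.27 and 55.92 TPM in the PBS group. The log2 difference was 0.41 ± 0.36 for Tap1, 0.34 ± 0.28 for Tap2 and 0.08 ± 0.08 for Tapbp (SE, limma, adjusted p = 1 each). Without FA replicate 3 these were 0.032, 0.030 and 0.023, and without FA replicate 1 they were 0.67, 0.57 and 0.11. The interval for Tapbp was -0.12 to 0.28, so that of the 10 genes it leaves least room for a difference, while that of Tap1 ran from -0.46 to 1.28.

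The inducible catalytic subunits of the immunoproteasome, which replace constitutive subunits and change which peptides are cut, stood at very different levels. Psmb10 (ENSMUSG00000031897) was at 46.96, 54.39 and 66.06 TPM in the FA group and at 53.87, 53.91 and 48.11 TPM in the PBS group. Psmb8 (ENSMUSG00000024338) was at 11.07, 13.36 and 26.78 TPM in the FA group and at 15.41, 13.26 and 11.01 TPM in the PBS group. Psmb9 (ENSMUSG00000096727) was at 5.97, 6.09 and 9.86 TPM in the FA group, against 8.61, 5.12 and 4.17 TPM in the PBS group. All 3 peaked in FA replicate 3, and Psmb9 was nearly as high in PBS replicate 1. The log2 differences were 0.26 ± 0.31 for Psmb8, 0.27 ± 0.28 for Psmb9 and 0.09 ± 0.13 for Psmb10 (SE, limma, adjusted p = 1 each). Without FA replicate 3 they were -0.10, 0.064 and -0.037. Psmb9 was at 0.53 without PBS replicate 1 and at 0.084 without PBS replicate 3, and without FA replicate 1 Psmb8 was at 0.50 and Psmb10 at 0.20.

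Each inducible subunit was set against the constitutive subunit it replaces, within the same tumour. Psmb8 stood at 8.72%, 9.63% and 16.1% of Psmb5 in the FA group and at 10.7%, 9.15% and 7.39% in the PBS group. Psmb9 stood at 2.29%, 2.25% and 3.18% of Psmb6 in the FA group and at 3.27%, 2.10% and 1.48% in the PBS group. Psmb10 stood at 28.3%, 33.0% and 35.9% of Psmb7 in the FA group and at 30.5%, 33.7% and 28.1% in the PBS group. The inducible subunit was thus the minor one in every tumour, with the same order of the 3 pairs in each. The difference in mean log2 ratio was 0.29, 0.18 and 0.07 in that order, with p = 0.5, 0.5 and 0.7 by exact two-sided permutation tests (adjusted p = 0.7 for all 3 ratios), where 3 against 3 tumours cannot give less than 0.1. Without FA replicate 3 the difference for Psmb8 was 0.035.

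**Figure D2:**
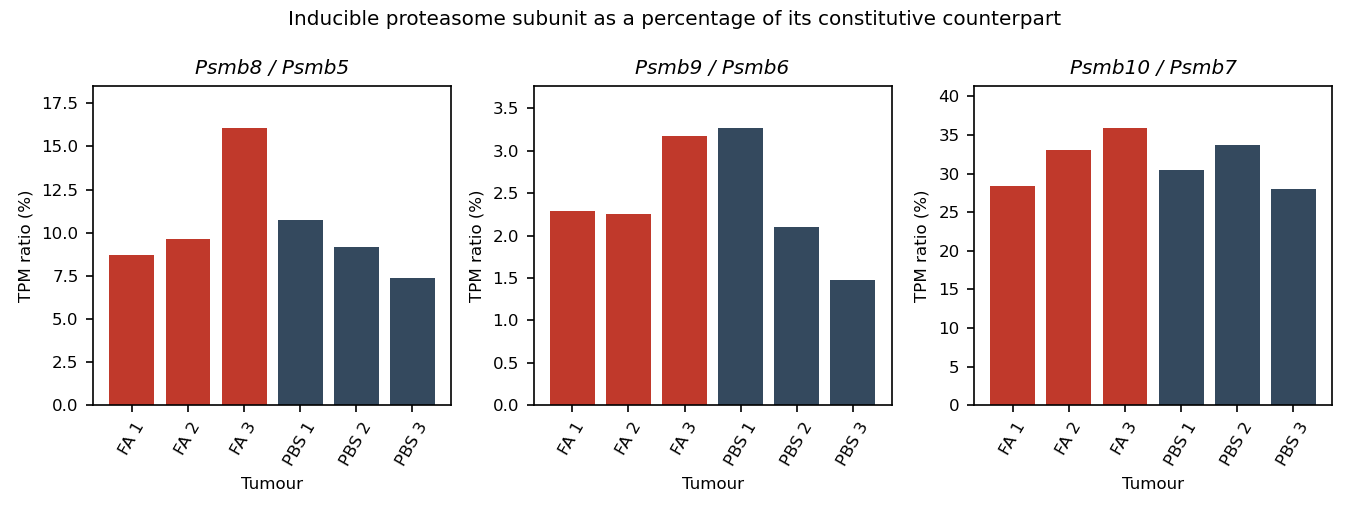
TPM of each inducible proteasome subunit as a percentage of its constitutive counterpart, 1 bar per tumour, FA in red and PBS in dark blue; vertical axes start at 0 and differ between panels. Psmb10 reaches 28.1% to 35.9% of Psmb7, whereas Psmb9 stays at 1.48% to 3.27% of Psmb6.

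The constitutive subunits varied less. Psmb5 averaged 144 ± 20.3 TPM in the FA group and 146 ± 2.78 TPM in the PBS group, Psmb6 280 ± 26.5 and 263 ± 19.2 TPM, and Psmb7 171 ± 10.7 and 169 ± 8.58 TPM (SD, n = 3 each). FA replicate 3 was the highest tumour for these 3 genes too, at 1.11 to 1.18 times the median of the others. Among 11 other core subunits of the proteasome that ratio ran from 1.01 to 1.36.

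Nlrc5 (ENSMUSG00000074151), the transactivator of class I genes, was the least abundant of the 10. It was at 2.02, 2.14 and 3.71 TPM in the FA group and at 2.34, 1.98 and 1.46 TPM in the PBS group, with overlapping groups. Its log2 difference was 0.29 ± 0.23, with an interval from -0.25 to 0.83 (limma, unadjusted p = 0.243, adjusted p = 1), and 0.085 without FA replicate 3 against 0.41 without FA replicate 1. At so low a level the pseudocount shrinks the observed log2 difference: with a pseudocount of 0.1 that of Nlrc5 was 0.40 (limma, unadjusted p = 0.246). The tumours ranked in the same order for Nlrc5 as for Psmb9: FA replicate 3, PBS replicate 1, FA replicates 2 and 1, then PBS replicates 2 and 3.

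Ordered by mean level over the 6 tumours, the genes ran B2m (607 TPM), H2-K1 (230.4), H2-D1 (155), Tapbp (61.5), Psmb10 (53.9), Psmb8 (15.1), Tap1 (6.66), Psmb9 (6.64), Tap2 (6.28) and Nlrc5 (2.28). Tap1, Psmb9 and Tap2 could not be ranked: Tap1 was above Psmb9 in 1 tumour and Psmb9 above Tap2 in 2 of 6. Tapbp and Psmb10 had overlapping ranges, although Tapbp was higher within each of the 6 tumours. The highest tumour exceeded the lowest by 1.22 to 1.41 times for B2m, Tapbp and Psmb10 and by 2.06 to 3.44 times for the other 7 genes. Second to FA replicate 3 came PBS replicate 2 for H2-K1, H2-D1, B2m and Tapbp, PBS replicate 1 for Tap1, Psmb8, Psmb9 and Nlrc5, and FA replicate 2 for Tap2 and Psmb10.

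Against the whole table, 0 of the 10 genes passed an adjusted p of 0.05 in limma, as did 0 of 15023 genes in either direction (0% higher, 0% lower). An unadjusted p under 0.05 was reached by 0 of the 10, against 0.686% of all genes higher and 0.592% lower in FA. Unadjusted p-values ran from 0.243 for Nlrc5 to 0.669 for H2-K1. FA and PBS values were fully separate in 0 of the 10, against 2.48% of all genes with FA higher and 2.22% with FA lower. A higher mean in FA was found in 10 of 10, against 50.7% of all genes, whose median log2 difference was 0.0016. The genes share tumours and a pathway, so they are not separate pieces of evidence, and all 10 are highest in the same tumour.

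**Figure D3:**
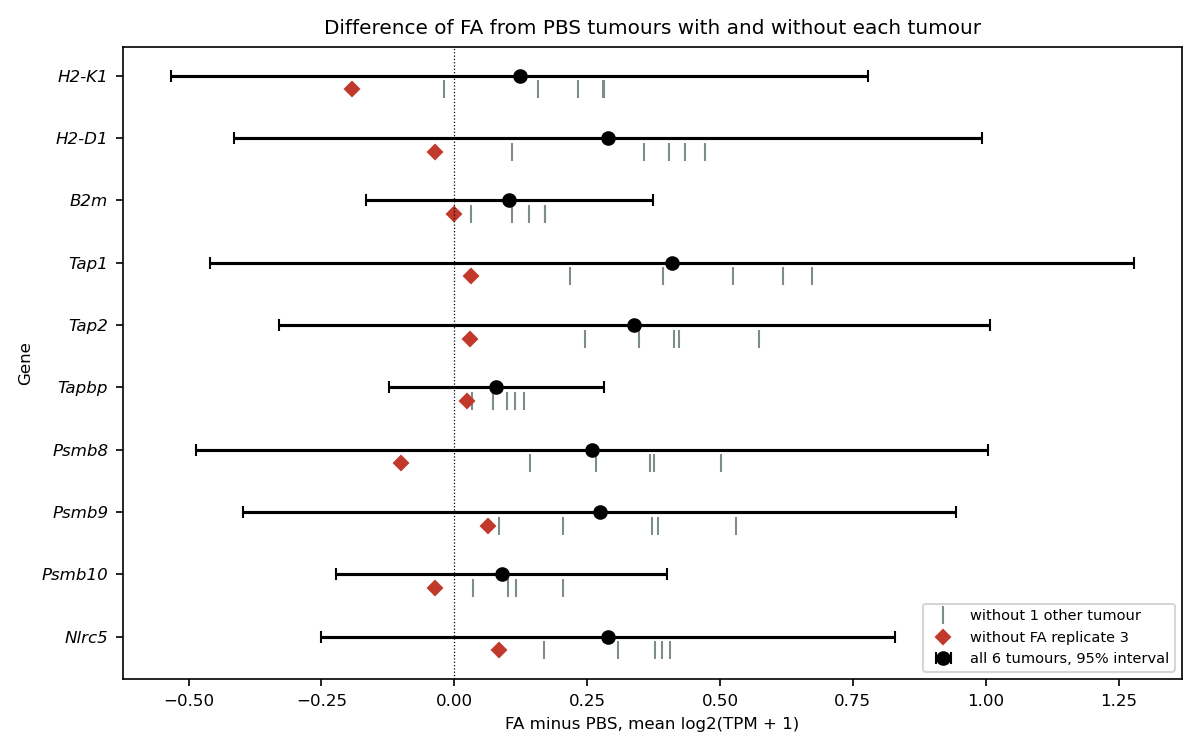
Difference of FA from PBS tumours in mean log2(TPM + 1) for each gene: black points with 95% intervals use all 6 tumours, red diamonds leave out FA replicate 3, and grey ticks leave out 1 of the other 5 tumours. All 10 intervals include 0, and the diamonds lie between -0.19 for H2-K1 and 0.085 for Nlrc5.

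Markers of other cells had their highest summed levels in the same tumour, apart from a near tie for T and NK cells. Their markers, at very low levels, summed to 3.63 TPM in FA replicate 2 and 3.58 TPM in FA replicate 3. The summed level of 5 pan-leukocyte markers was 134, 160 and 281 TPM in the FA group and 171, 142 and 141 TPM in the PBS group, and all 5 were highest in FA replicate 3. The sum of 8 macrophage markers was 568, 582 and 911 TPM in the FA group and 641, 602 and 540 TPM in the PBS group, with 7 of 8 highest in FA replicate 3. The remaining marker, Cd14, was lowest in that tumour, at 0.642 times the median of the other 5. Endothelial markers summed to 48.1, 63.9 and 198 TPM in the FA group and to 87.5, 52.0 and 63.2 TPM in the PBS group, and fibroblast markers to 1063, 1330 and 3598 TPM against 1868, 955 and 1369 TPM. The skeletal muscle markers, from tissue that a subcutaneous tumour can carry, summed to 12.4, 109 and 936 TPM in the FA group and to 132, 14.2 and 101 TPM in the PBS group. Their part in the class I levels was not tested.

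FA replicate 3 exceeded the median of the other 5 tumours by a median of 1.88 times over the 10 class I genes, 1.86 times over the leukocyte markers and 1.82 times over the macrophage markers. The medians were 3.37 over endothelial and 2.56 over fibroblast markers. Ductal epithelial markers summed to 4640 to 5359 TPM in the FA group and 4312 to 4948 TPM in the PBS group. Led by Krt18 and Krt8, they were thus abundant in all 6 tumours, with a median ratio of 1.24. The keratins among them stood at 1.07 to 1.24 times in FA replicate 3. Epcam differed, at 2.77 times there and at 0.564 times in PBS replicate 3. Lymphocyte RNA was scarce: all 8 T and NK cell markers and all 4 B cell markers averaged under 1 TPM, and of the 8 T and NK cell markers 3 were at 0 in at least 1 tumour. Their sums were between 1.26 and 3.63 TPM in the FA group and between 1.37 and 2.35 TPM in the PBS group for T and NK cells. Dendritic cell markers summed to 10.2 to 20.4 TPM in the FA group and to 10.6 to 13.2 TPM in the PBS group.

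**Figure D4:**
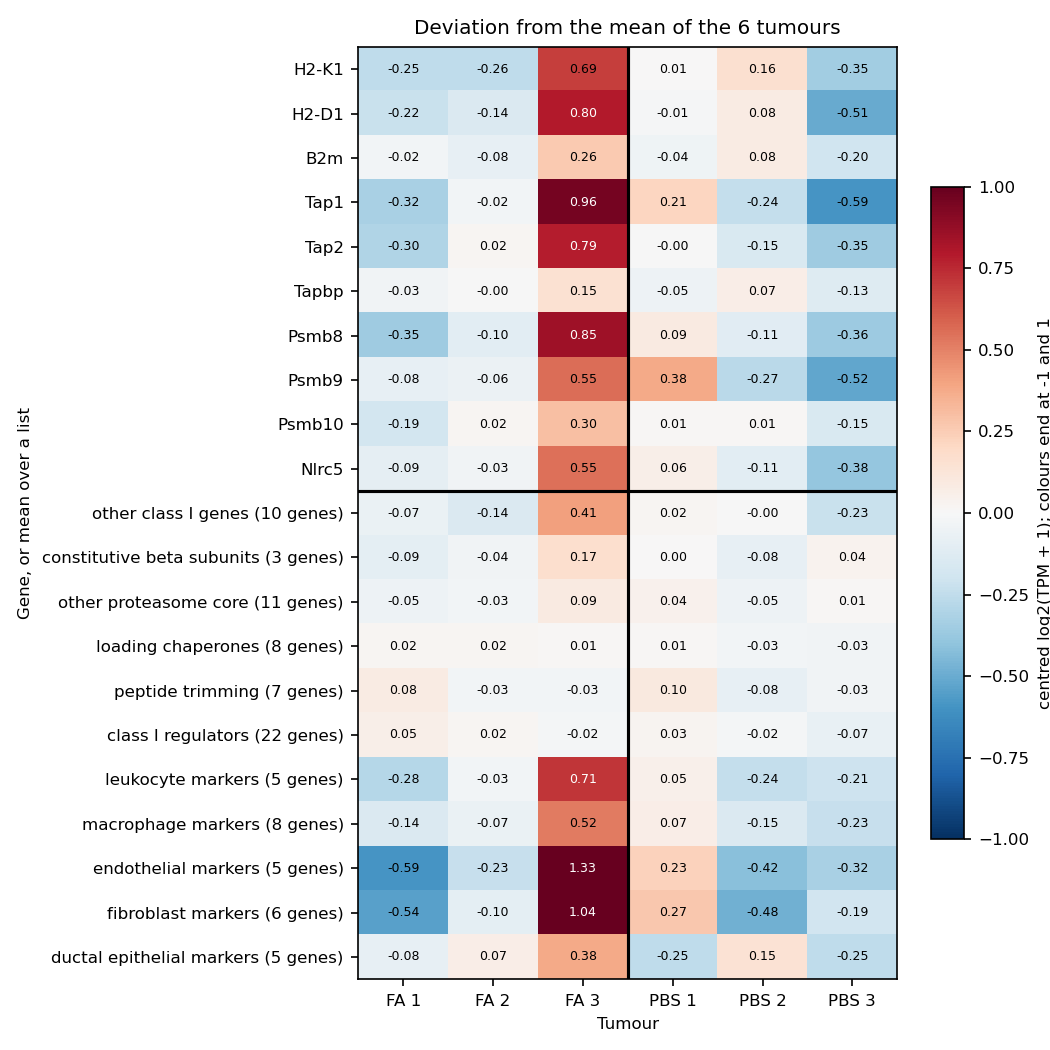
Deviation of each tumour from the mean of the 6, in log2(TPM + 1), for the 10 class I genes (above the line) and as means over lists of pathway genes and cell type markers (below it), FA tumours left of PBS tumours. FA replicate 3 stands at 0.59 on average over the 10 genes, at 0.71 for leukocyte markers and at -0.02 for class I regulators. Single regulators differ there, from 0.675 to 1.89 times the median of the other tumours. PBS replicate 3 stands at -0.35 over the 10.

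The low end had a tumour of its own. PBS replicate 3 was the lowest of the 6 for 9 of the 10 genes, all but Psmb10, against 15.7% of all genes tested. It stood at 0.622 times the median of the other 5 tumours for Tap1, at 0.682 for Nlrc5, 0.685 for Psmb9 and 0.708 for H2-D1, but at 0.912 for Tapbp. Of the 10 other class I genes past the filter, 5 (50%) were lowest in that tumour as well. Leukocyte markers did not follow as closely, with 1 of 5 lowest in that tumour, and 5 of 8 macrophage markers were. Among 22 regulators of the class I genes 4 (18.2%) were lowest in PBS replicate 3, a share near that of all genes. One of these 4, Irf1, stood at 0.856 times the median of the other 5 tumours there and at 1.10 times in FA replicate 3. Another, Irf9, stood at 0.809 times in FA replicate 3 (named after its values were seen). Over the 22 regulators, FA replicate 3 was highest for 4 (18.2%) and lowest for 8 (36.4%), against 29.4% and 37.5% of all genes.

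The rest of the pathway was measured by 73 further genes, of which 66 passed the filter. By limma 0 of 66 passed an adjusted p of 0.05 in either direction. An unadjusted p under 0.05 was reached by 1, higher in FA (0.686% of all genes higher, 0.592% lower). A higher mean in FA was found in 46 of them (50.7% of all genes) and a lower one in 20, with a median log2 difference of 0.028. Groups were separate with FA higher in 3 of the 66 (2.48% of all genes) and with FA lower in 0 (2.22%). Of all 22 regulators 15 had a higher and 7 a lower mean in FA. Irf1, an interferon-induced factor that acts on class I promoters, averaged 42.6 ± 2.60 TPM in the FA group and 38.8 ± 3.35 TPM in the PBS group. Rfxap, a subunit of the RFX complex that works with Nlrc5, averaged 31.8 ± 2.07 TPM in the FA group and 35.4 ± 2.67 TPM in the PBS group, and the interferon receptor gene Ifnar1 44.2 ± 3.82 and 40.7 ± 1.59 TPM.

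Psme2, a subunit of the proteasome activator that interferon gamma induces, was separate between the groups at 182.77, 184.77 and 206.95 TPM in the FA group and 172.96, 180.35 and 160.34 TPM in the PBS group. Its log2 difference was 0.16 ± 0.08 (limma, unadjusted p = 0.0782, adjusted p = 1). Its partner Psme1 was at 167.01, 181.92 and 145.32 TPM in the FA group and at 160.70, 180.99 and 157.31 TPM in the PBS group, and was lowest in FA replicate 3. Of the 8 loading chaperones 6 had a higher and 2 a lower mean in FA, and in FA replicate 3 they stood at 0.876 to 1.18 times the median of the other tumours. Calreticulin (Calr, named after its values were seen), which holds class I molecules during loading, averaged 813 ± 27.7 TPM in the FA group and 813 ± 27.6 TPM in the PBS group, and its log2 difference had a 95% interval of -0.13 to 0.13. Calnexin (Canx), which assists heavy chain folding, averaged 334 ± 10.2 and 315 ± 16.9 TPM. The 7 peptide-trimming enzymes split into 4 with a higher and 3 with a lower mean in FA. Among them, the endoplasmic reticulum aminopeptidase Erap1 averaged 16.2 ± 2.10 TPM in the FA group and 14.6 ± 2.14 TPM in the PBS group, and the cytosolic aminopeptidase Npepps 81.1 ± 15.5 and 87.8 ± 5.90 TPM.

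Other class I genes were taken from a list of the Q, T and M regions and Mr1. Of 17 listed, 10 passed the filter, 0 passed the test (limma, 0 with an unadjusted p under 0.05), and 9 of the 10 had a higher mean in FA (50.7% of all genes did). The 4 genes of the Q region past the filter were all highest in FA replicate 3, at 2.02 to 3.28 times the median of the others. So were H2-T22 (1.21 times) and H2-M3 (1.38 times). H2-Q10, one of the 4, averaged 1.01 TPM and passed the filter only through its 2.17 TPM in FA replicate 3. Its peak there and its higher mean in FA are therefore not independent of the filter. H2-Q4 was at 9.20, 8.96 and 18.54 TPM in the FA group and at 10.40, 11.34 and 8.35 TPM in the PBS group. H2-Q7 was at 2.63, 3.0 and 9.85 TPM in the FA group and at 4.85, 3.56 and 2.94 TPM in the PBS group. H2-T22, a nonclassical gene whose product binds some gamma delta T cell receptors, averaged 30.2 ± 3.75 TPM in the FA group and 27.1 ± 2.40 TPM in the PBS group (SD, n = 3 each). H2-T23, which encodes Qa-1, a ligand of the NK cell receptor NKG2A, was flat in FA, at 58.13, 57.73 and 59.76 TPM, against 51.91, 65.66 and 50.67 TPM in the PBS group. H2-T24 was separate between the groups, at 2.64, 2.91 and 2.91 TPM in the FA group and at 2.52, 2.25 and 1.53 TPM in the PBS group, with a log2 difference of 0.31 ± 0.17 (unadjusted p = 0.106, adjusted p = 1, limma). Several of these genes share sequence: 44.7% of the 50-base stretches of H2-T22 recur in another gene's transcript, with 37.9% found in H2-T10. The share was 34.9% for H2-Q7, 32.0% for H2-Q6, 28.8% for H2-T23 and 24.25% for H2-Q4. The levels of all these genes are therefore uncertain, while for H2-M3 the share was 0.576%. H2-Q7 and H2-T23 are named after their values were seen.

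Outside the pathway, the genes whose profile over the 6 tumours lay nearest to the mean profile of the 10 were Ly86, Slc1a5, Pim3, Ptpn18 and C1qc, of 10618 candidates with a mean of at least 5 TPM. Their root mean square distance to it, in centred log2(TPM + 1), was 0.034, 0.043, 0.048, 0.054 and 0.056. Ly86, which encodes a surface partner of a Toll-like receptor relative on B and myeloid cells, was at 17.04, 18.60 and 30.45 TPM in the FA group and at 20.09, 19.52 and 15.94 TPM in the PBS group. C1qc, a chain of complement C1q made by macrophages, was at 108.53, 119.27 and 200.50 TPM in the FA group and at 128.50, 124.32 and 106.60 TPM in the PBS group. Slc1a5, a neutral amino acid transporter, was at 31.57, 36.60 and 59.29 TPM in the FA group and at 38.27, 36.07 and 28.01 TPM in the PBS group. Among the 10 genes themselves, Nlrc5 lay nearest to their mean profile, at 0.052, and Tapbp farthest, at 0.22. That mean includes each of the 10. The distance also depends on the size of the spread, which was narrowest for Tapbp and which the pseudocount shrinks for Nlrc5.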

How the data were processed

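The authors deposited 1 table of TPM for 55357 Ensembl genes in the 6 tumours, and each column sums to the same total. FastQC, STAR, RSEM and featureCounts appear in the submitters' processing notes with neither version nor role. Build and annotation of the table are not given in the sources consulted. Per the labels' protocols, libraries were stranded total RNA. TPM keeps no depth, so read numbers are unknown and no counting interval is given. Columns were matched through the sample descriptions. The 15023 genes that averaged 1 TPM or more were put on the log2(TPM + 1) scale and fitted with limma 3.58.1 in R 4.3.3 (FA against PBS, no covariate, variance trend, two-sided, Benjamini-Hochberg over all genes, threshold 0.05), after the fit was tested on simulated data. Intervals are at 95%, errors beside TPM are SD and beside log2 differences SE. The members, the lists and the naming rule were chosen with earlier results of these data known. That rule takes the 10 genes, up to 4 per pathway list by smallest p, and the 5 genes of nearest profile; values of one gene that it takes are not reported here. Promoters are RefSeq's (GRCm38.p6), and shared stretches were counted in GENCODE M21 transcripts, with a length of 50 because the read length is not given. Alternatives were other pseudocounts, filters and scalings, no trend, array weights, a replicate block and leaving out each tumour.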

Additional observations from a re-analysis of the deposited data

How the results depend on the processing

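None of the 10 genes passed an adjusted p of 0.05 in any alternative run. With all 6 tumours kept, 98 of 99 alternative values had the same sign as reported, the exception being H2-K1 at -0.047 with array weights, which also gave a median of 0.095 for the 10 genes. Without a filter 2 genes of the table, Gm22728 and Gm24045, passed as higher in FA. With a tumour left out, 0 to 1 passed as lower, Snord14d without FA replicate 3 (all 3 named after their values were seen). Leaving out 1 tumour gave a median for the 10 genes from 0.011 without FA replicate 3 to 0.39 without FA replicate 1, with 0.096 without PBS replicate 3. It gave 5 to 10 genes with a higher mean in FA, with 5 without FA replicate 3. It gave 0 to 2 of the 10 with separate groups, namely 2 without FA replicate 1 (18.7% of all genes), 2 without PBS replicate 1 (13.3%) and 1 without PBS replicate 2 (11.8%), which is near the share of all genes. The differences then ran from -0.19 to 0.28 for H2-K1, from -0.036 to 0.47 for H2-D1, from -0.0014 to 0.17 for B2m, from -0.10 to 0.50 for Psmb8, from -0.037 to 0.20 for Psmb10, from 0.032 to 0.67 for Tap1, from 0.030 to 0.57 for Tap2, from 0.023 to 0.13 for Tapbp, from 0.064 to 0.53 for Psmb9 and from 0.085 to 0.41 for Nlrc5. The difference in log2 ratio ran from -0.057 (without PBS replicate 3) to 0.44 for Psmb9 over Psmb6 and from -0.0029 (without FA replicate 3) to 0.16 for Psmb10 over Psmb7. With the replicate number as a block the median stayed at 0.27 and 0 genes of the table were called; tumours of the same number did not deviate together (correlations of -0.21, 0.053 and -0.022), and none of the FA tumours correlated best with its own number. The median of all genes stayed between -0.011 and 0.016. What depth limits cannot be told from TPM.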
